A study of Mus musculus with 9 samples.

Results

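Injured mouse brain tissue treated with C-β-LG/DSF was compared with injured tissue left untreated, across all genes of the deposited expression table. The comparison used 6 of the 9 libraries of the series, 3 from each group, chosen by their labelled group. The TBI group had a traumatic brain injury made by a model that the labels call heavy fall. The C-β-LG/DSF group received the same injury and then the nanoparticle preparation C-β-LG/DSF through a tail vein, so the injury is shared by both groups. The 3 Sham libraries, from animals whose skull and dura were opened without damage to the brain, are given beside the results as the background. They entered no test except an alternative fit to all 9 libraries. Tissue was taken from the injured area, or from the same site in Sham. The sources used here do not give strain, age, sex, dose or the time after injury. Whether each library is a separate animal is also not stated, so p-values measure only the spread between these samples, which may be technical.

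DSF is the usual abbreviation of disulfiram, a drug used against alcohol dependence that inhibits aldehyde dehydrogenase and is known to block the pores formed by gasdermin D. Pyroptosis is an inflammatory form of cell death in which an inflammasome, built from a sensor such as NLRP3 and the adaptor ASC, activates caspase-1. Caspase-1 cuts gasdermin D and the precursors of interleukin-1β and interleukin-18, and the freed gasdermin fragment forms pores in the cell membrane. After a brain injury microglia, the resident phagocytes, and astrocytes change their expression, and macrophages enter from blood and from the brain's borders. A block of the gasdermin pore acts on protein, so transcript levels of the pathway need not follow it.

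Values are the authors' deposited FPKM, that is, fragment counts divided by transcript length and by the mapped fragments of the library. The number of fragments per library is unknown. FPKM totals ran from 406274 to 415823 in C-β-LG/DSF and from 424592 to 427423 in TBI, and 13040 to 13312 genes reached an FPKM of 1 in each. The injured libraries were not alike within their groups. Correlations across genes, which are not independent replicates, were 0.945 to 0.972 between TBI libraries and 0.976 to 0.986 between C-β-LG/DSF libraries. TBI 1 stood at one end of the first principal component (-50.1, against -12.4 to 30.5 in the other 5 libraries; 52.4% of the variance). The mean log2 level of 18 thalamic marker genes was 3.86 in TBI 3, 3.58 in C-β-LG/DSF 2 and 3.01 in C-β-LG/DSF 3, and 1.86 to 2.14 in TBI 1, TBI 2, C-β-LG/DSF 1 and Sham, so pieces of tissue with and without high thalamic transcripts stood in both groups. Medians of gene lists are therefore mostly given with and without TBI 1, and with and without TBI 3 where that matters. For single genes a value without a library is given mainly where the log2 difference changed more than 1.5-fold. Genes without such a value may also have moved. Y-linked Ddx3y was present in all 9 libraries (5.02 to 9.21 FPKM). Brain markers of neurons (Snap25, 467 to 820 FPKM in the 6 injured libraries), astrocytes (Aqp4, 33.8 to 60.9 FPKM) and microglia (Cx3cr1, 23.4 to 73.5 FPKM) were all detected.

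The stretches of 250 bases before the transcription start are shown for 4 of the genes with the smallest p or the largest difference in either direction, because these are the sequences nearest to the point at which such transcript differences could arise. They are RefSeq sequences of GRCm38.p6, written 5′ to 3′ on the strand of the gene. Capitals mark matches, on either strand, to letters looked for in every promoter: GAGGAAG, a form of the ETS motif bound by PU.1 in myeloid cells; TGANTCA, the AP-1 motif; TGACGTCA, the CRE motif; and GGG, 2 bases of any kind and TTTCC, a form of the kappa-B motif. None of these overlapped another in the sequences shown. All 4 sequences shown hold a match, while promoters of other genes chosen by the same rule, such as Adgrg5, Chil1 and Kcnd3, hold none. Cd9 (chr6:125494761-125495010, minus strand) and Cdhr1 (chr14:37098348-37098597, minus strand) each held a kappa-B match, and Pycard (chr7:127993868-127994117, minus strand) and Pf4 (chr5:90772185-90772434, plus strand) each held an ETS match.
Cd9: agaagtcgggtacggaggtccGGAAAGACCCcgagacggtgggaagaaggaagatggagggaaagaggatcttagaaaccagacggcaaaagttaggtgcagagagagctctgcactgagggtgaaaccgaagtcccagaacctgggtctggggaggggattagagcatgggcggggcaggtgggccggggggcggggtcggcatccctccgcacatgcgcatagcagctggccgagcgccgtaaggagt
Pycard: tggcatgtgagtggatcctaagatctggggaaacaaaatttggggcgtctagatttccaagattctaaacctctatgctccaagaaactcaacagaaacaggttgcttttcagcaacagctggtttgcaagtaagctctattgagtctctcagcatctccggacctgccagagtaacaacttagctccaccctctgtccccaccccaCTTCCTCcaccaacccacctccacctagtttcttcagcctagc
Pf4: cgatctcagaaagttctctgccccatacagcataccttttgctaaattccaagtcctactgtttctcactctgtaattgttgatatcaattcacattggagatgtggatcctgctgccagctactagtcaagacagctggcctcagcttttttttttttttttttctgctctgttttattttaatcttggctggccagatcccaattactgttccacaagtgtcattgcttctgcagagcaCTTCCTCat
Cdhr1: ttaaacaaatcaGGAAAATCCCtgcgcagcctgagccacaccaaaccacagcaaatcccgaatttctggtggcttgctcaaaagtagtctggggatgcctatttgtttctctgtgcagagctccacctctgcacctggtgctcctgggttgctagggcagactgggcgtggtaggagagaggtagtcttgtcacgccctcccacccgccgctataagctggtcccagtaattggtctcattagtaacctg
Of the 16 genes that were lower in C-β-LG/DSF by the rule for named genes, 13 had a promoter in the RefSeq table, and the ETS letters were in those of 4 (Cd5l, Pf4, Pycard and Wfdc17), the AP-1 letters in those of Ctla2a and Slc37a2, and the kappa-B letters in that of Cd9. Of the 14 that were higher, 10 had a promoter, with the ETS letters in that of Pdxk and the kappa-B letters in that of Cdhr1. Over all 32851 promoters of the same length, 10.6% held the ETS letters, 6.75% the AP-1 letters, 1.55% the CRE letters and 1.41% the kappa-B letters. A match describes the letters only.

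The question was which transcripts differ at the injury when the preparation is given, with pyroptosis and inflammation the series' stated interest. No gene passed: limma gave 0 of 14160 genes (0%) at an adjusted p of 0.05, with a smallest adjusted p of 0.628. At an unadjusted p under 0.05 there were 1112 genes (7.85%), 753 lower (5.32%) and 359 higher (2.54%) in C-β-LG/DSF. Every C-β-LG/DSF library lay below every TBI library in 1311 genes (9.26%), and above in 849 genes (6%). The median log2 difference of all genes was -0.02. Of genes that differed at least 2-fold, 105 were lower, 58 of them with no overlap between the groups, and 40 were higher, 10 of them with no overlap. The excess of lower genes depended on the scale: with FPKM rescaled to equal totals 512 genes were lower and 631 higher at an unadjusted p under 0.05, and after quantile normalization 547 and 486. The counts without overlap turned each time, to 879 lower and 1394 higher after rescaling and to 980 and 1172 after quantile normalization. The measures therefore differed after quantile normalization, where lower genes stayed the more numerous by unadjusted p. Of all genes 53.2% had a difference below 0, the share against which the counts of lower genes in each list are to be read. All statements below that a gene or list was lower or higher give measured differences, none of which passed the test over all genes, and the adjusted p by limma was 0.628 for every gene given with an SE unless another value is printed. FPKM cannot tell fewer cells of a type from less RNA per cell.

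**Figure D1:**
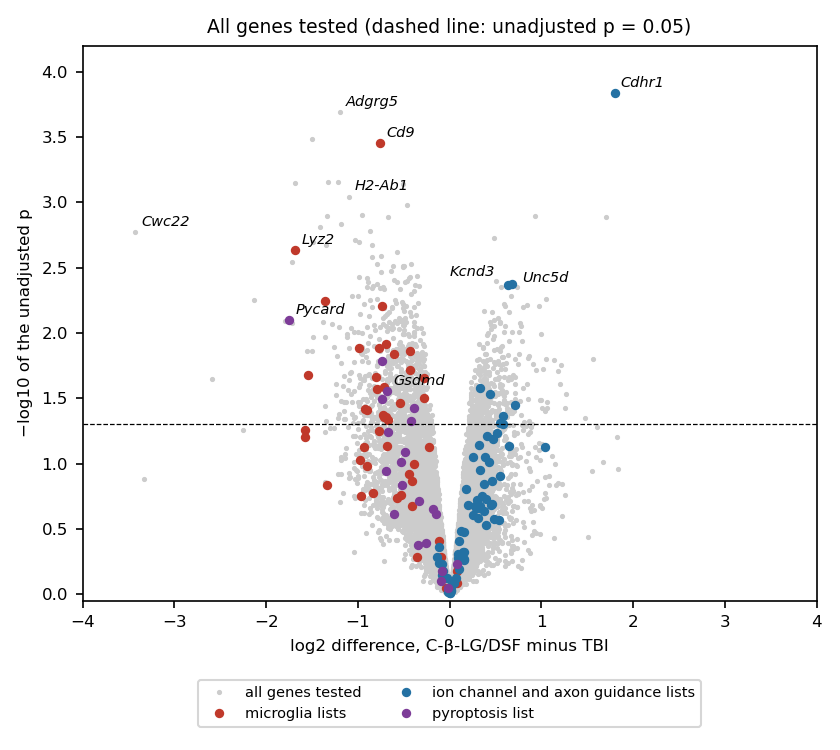
Log2 difference between C-β-LG/DSF and TBI (horizontal axis) against the −log10 of the unadjusted p (vertical axis) for the 14160 genes tested, with 3 sets of listed genes in colour. Microglial genes lie mostly left of 0 and genes of ion channels and axon guidance mostly right of 0; no gene passes the adjusted test.

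The genes of smallest p and of largest difference described next were taken only from genes whose groups do not overlap, so the lack of overlap is given by the choice. Adgrg5, an adhesion G protein-coupled receptor gene, was at 3.57, 3.33 and 2.71 FPKM in TBI and at 1.24, 1.13 and 0.969 FPKM in C-β-LG/DSF. Both groups were tight, and Sham was at 0.0939 to 0.226 FPKM; the log2 difference was -1.20 (SE 0.17, unadjusted p = 0.000203 by limma). Cd9 encodes a tetraspanin, a membrane protein that organises receptors and integrins and is abundant on phagocytic microglia. It was at 128, 110 and 109 FPKM in TBI, at 71.2, 60.1 and 73.5 FPKM in C-β-LG/DSF and at 29.4 to 35.8 FPKM in Sham. The treated libraries lay between Sham and TBI without touching either, with a log2 difference from TBI of -0.76 (SE 0.12, 95% interval -1.03 to -0.48). H2-Ab1, the beta chain of an MHC class II molecule, was at 3.96, 3.40 and 4.05 FPKM in TBI against 1.83, 1.05 and 1.72 FPKM in C-β-LG/DSF (-1.10, SE 0.20). Pf4, platelet factor 4, is a chemokine gene that macrophages of the brain's borders also express, and it was at 12.5, 6.61 and 6.41 FPKM against 2.53, 3.09 and 3.13 FPKM (-1.34, SE 0.26). In Pf4 the treated libraries stood close to the Sham range of 1.47 to 2.40 FPKM, and TBI 1 was the highest. Without TBI 1 the Pf4 difference was -1.04.

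Of the other lower genes of smallest p, Slc37a2, a sugar phosphate transporter of macrophages, had a log2 difference of -1.68 (SE 0.29), with 0.505 to 1.11 FPKM in C-β-LG/DSF against 2.71 to 5.41 FPKM in TBI. Differences were -1.32 (SE 0.23) in the aldo-keto reductase gene Akr1b8, -1.22 (SE 0.21) in Ctla2a, whose product inhibits cathepsin-like proteases, and -0.96 (SE 0.18) in the chitinase-like gene Chil1. Eci2, an enzyme of fatty acid oxidation, was at 26.9 to 29.8 FPKM in TBI and at 20.0 to 20.9 FPKM in C-β-LG/DSF (-0.46, SE 0.09). Psenen, a subunit of γ-secretase, was at 61.6 to 66.1 FPKM against 41.9 to 48.0 FPKM (-0.51, SE 0.09), but Sham spanned 44.6 to 70.2 FPKM and overlapped both groups.

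Among lower genes the largest difference was in Cwc22. This splicing factor gene was at 93.9, 105 and 56.3 FPKM in TBI and at 25.2, 3.97 and 3.48 FPKM in C-β-LG/DSF, a log2 difference of -3.43 (SE 0.69), while Sham was at 49.9 to 90.6 FPKM. Arg1, the arginase of alternatively activated macrophages, was at 10.6, 2.62 and 1.92 FPKM in TBI against 0.605, 0.512 and 0.393 FPKM (-2.13, SE 0.54). TBI 1 was far above the other 2 TBI libraries in Arg1, and without it the difference was -1.46. Next in size were Cd5l, a protein secreted by macrophages (-1.79, SE 0.49), the protease inhibitor-like gene Wfdc17 (-1.72, SE 0.47) and the C-type lectin gene Clec4n (-1.71, SE 0.38). Without TBI 1 these differences were -1.62, -1.20 and -1.27. Cd5l was listed at 0 in all Sham libraries and Wfdc17 in 2 of them.

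Among genes higher in C-β-LG/DSF, Cdhr1, a cadherin-related gene best known from photoreceptors, had the smallest p of all genes (0.000147, adjusted p = 0.628). It was at 0.794, 0.820 and 1.28 FPKM in TBI and at 4.41, 6.13 and 3.43 FPKM in C-β-LG/DSF, with Sham at 0.585 to 2.14 FPKM; the log2 difference was 1.80 (SE 0.24). The treated libraries therefore lay above both other groups in Cdhr1. Ndst4, an enzyme that modifies heparan sulfate, was at 1.07, 0.882 and 1.34 FPKM in TBI, at 2.29, 2.78 and 2.54 FPKM in C-β-LG/DSF and at 0.0923 to 0.247 FPKM in Sham (0.93, SE 0.18). In Unc5d, a receptor for the guidance protein netrin, TBI was at 2.09, 2.61 and 2.89 FPKM and C-β-LG/DSF at 4.47, 4.74 and 3.82 FPKM (0.68, SE 0.16). Sham, at 4.99 to 5.43 FPKM, was above both.

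Kcnd3, the potassium channel Kv4.3, was at 8.44, 12.2 and 11.7 FPKM in TBI and at 16.0, 18 and 16.7 FPKM in C-β-LG/DSF (0.64, SE 0.15), above Sham at 9.20 to 9.77 FPKM. Tmem28 was almost constant within groups, at 6.95 to 7.64 FPKM in TBI and 10.2 to 10.4 FPKM in C-β-LG/DSF (0.48, SE 0.10). Differences of 0.57 (SE 0.14) in Pdxk, the kinase that activates vitamin B6, 0.74 (SE 0.18) in the glypican gene Gpc3, 0.67 (SE 0.17) in Fibin, 0.50 (SE 0.12) in Arl16 and 1.71 (SE 0.33) in Izumo4 completed the 10 of smallest p. The largest differences also took in Myoc (1.56, SE 0.49), Cyp26b1, which degrades retinoic acid (1.18, SE 0.39), the haemoglobin gene Hbq1a (1.22, SE 0.39) and Zkscan16 (1.47, SE 0.60). Of these, Cyp26b1 was 0.73 without C-β-LG/DSF 1, at 11.3 FPKM the highest library, Zkscan16 was 0.74 without TBI 1, and Hbq1a was 0.76 without TBI 2. Zkscan16 and Izumo4 also varied widely within Sham, from 0.937 to 5.66 FPKM and from 3.71 to 12 FPKM.

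**Figure D2:**
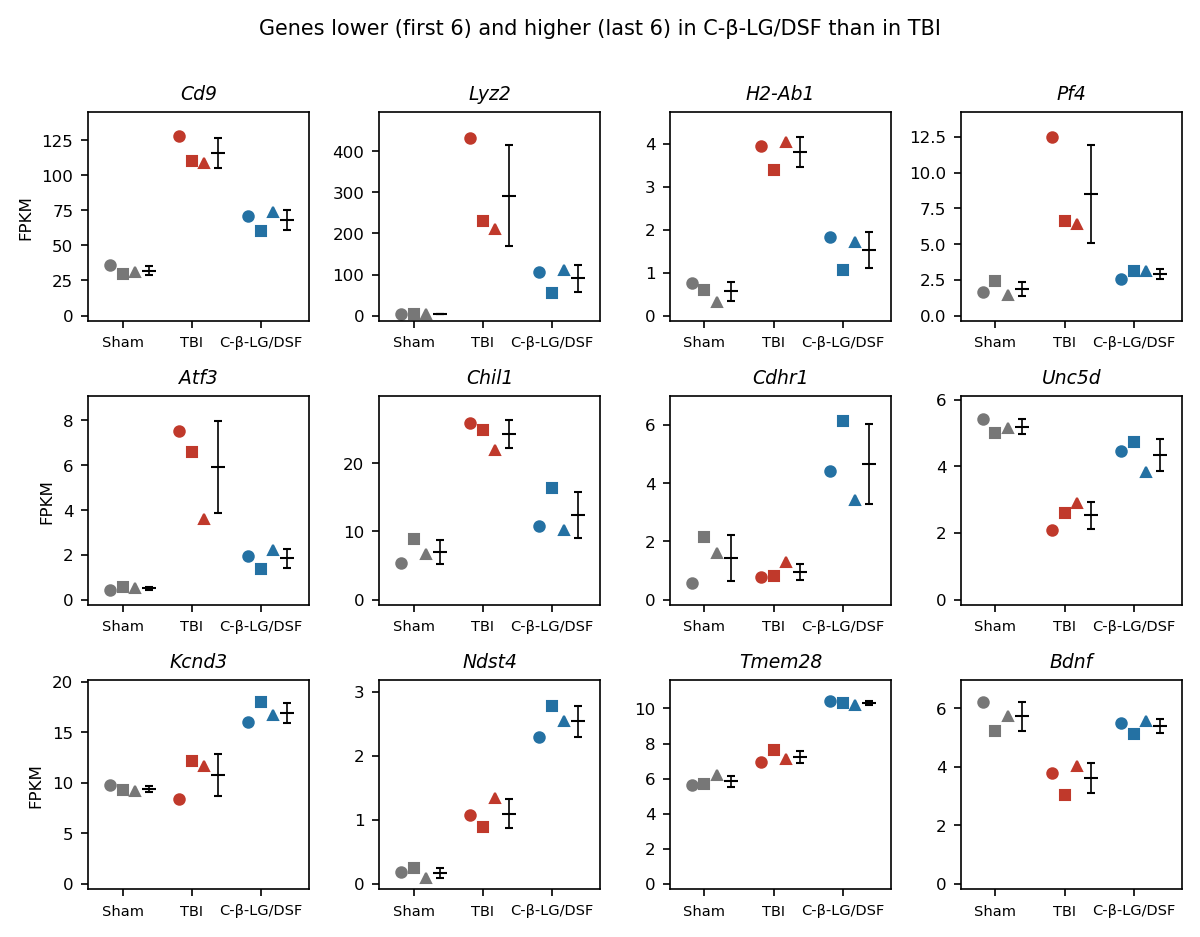
FPKM of 12 genes in each library (circle, square and triangle for libraries 1, 2 and 3), with mean ± SD (n = 3) beside each group. In the first 6 panels the treated libraries all lie below TBI and in the last 6 all above it.

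Nearly all pyroptosis genes had lower values with treatment, by differences that did not pass. Of 30 listed genes 21 were tested and 20 of them had a difference below 0 (median -0.42; -0.22 without TBI 1 and -0.56 without TBI 3); 6 of the 21 lay entirely below TBI, where 9.26% of all genes did, and none lay entirely above. Gsdmd, the pore-forming gasdermin (chr15:75862339-75867404 in GRCm38), was at 8.34, 4.69 and 4.19 FPKM in TBI and at 3.33, 2.99 and 3.40 FPKM in C-β-LG/DSF, with Sham at 1.10 to 1.26 FPKM. The treated libraries were close together and all under TBI, with a log2 difference of -0.68 (SE 0.25, 95% interval -1.26 to -0.10, unadjusted p = 0.0279 by limma). Without TBI 1 it was -0.40. Pycard, the adaptor ASC (chr7:127989708-127993867 in GRCm38), was at 27.7, 10.6 and 6.85 FPKM in TBI and at 4.18, 2.40 and 3.98 FPKM in C-β-LG/DSF (-1.75, SE 0.48), and it stayed at -1.20 without TBI 1. Sham was at 0.763 to 2.48 FPKM, so its highest library lay just above the lowest treated one.

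Ninj1 encodes the membrane protein that ruptures dying cells after gasdermin pores have formed. It was at 33.0, 23.3 and 22.9 FPKM in TBI and at 19.3, 19.1 and 20.8 FPKM in C-β-LG/DSF (-0.39, SE 0.15; -0.22 without TBI 1). Naip2, a sensor of bacterial proteins, was at 0.976 to 1.65 FPKM against 0.392 to 0.705 FPKM (-0.73, SE 0.23). In Casp1, the caspase that cuts gasdermin D, the groups overlapped: TBI was at 3.32, 3.13 and 1.08 FPKM and C-β-LG/DSF at 2.17, 1.84 and 2.38 FPKM, with a 95% interval of the difference from -0.92 to 0.73 (adjusted p = 0.932). Nlrp3, the sensor, was at 1.78, 0.917 and 0.514 FPKM against 0.546, 0.463 and 0.616 FPKM (-0.51, 95% interval -1.26 to 0.23, adjusted p = 0.645; -0.21 without TBI 1, -0.79 without TBI 3). Gsdme, a gasdermin cut by caspase-3, differed by 0.09 (95% interval -0.28 to 0.45, adjusted p = 0.857). Among the cytokine genes, Il18 differed by -0.08 (95% interval -0.52 to 0.35, adjusted p = 0.885) and Il1a by -0.48 (95% interval -1.05 to 0.08). Il1b and Casp4 were too low to be tested. Il1b was at 1.35, 0.445 and 0.279 FPKM in TBI and 0.248, 1.08 and 0.215 FPKM in C-β-LG/DSF, and Casp4 at 1.60, 0.918 and 0.491 FPKM and 0.243, 0.407 and 0.474 FPKM.

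**Figure D3:**
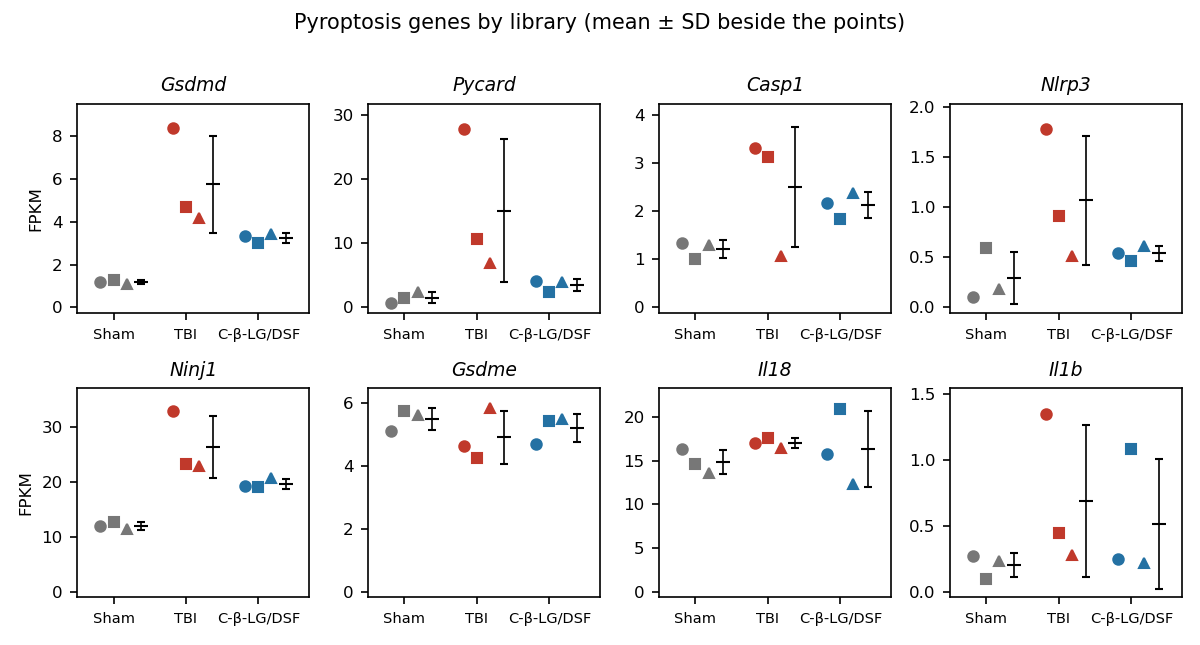
FPKM of 8 pyroptosis genes in each library, with mean ± SD (n = 3) beside each group. Gsdmd, Pycard and Ninj1 show no overlap between TBI and C-β-LG/DSF, and TBI 1 (circle) is the highest library in Gsdmd, Pycard, Nlrp3, Ninj1, Casp1 and Il1b.

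Beside the pyroptosis genes, genes of phagocytic microglia were lower: 26 of 27 tested genes had a difference below 0, with a median of -0.77 (-0.55 without TBI 1, -1.01 without TBI 3). Of the 27, 9 lay entirely below TBI (33.3%, against 9.26% of all genes). Lyz2, the lysozyme of myeloid cells, was at 433, 231 and 211 FPKM in TBI, at 105, 53.9 and 112 FPKM in C-β-LG/DSF and at 3.29 to 4.41 FPKM in Sham (-1.68, SE 0.36). Without TBI 1 the Lyz2 difference was -1.36. Fabp5, a fatty acid carrier, was at 272, 129 and 102 FPKM against 66.3, 48.7 and 65.0 FPKM (-1.36, SE 0.35, and -0.95 without TBI 1). Its treated values were within or below the Sham range of 61.2 to 69.6 FPKM. The list mean per library, relative to Sham on the log2 scale, was 3.29, 2.58 and 2.13 in TBI and 2.0, 1.28 and 2.19 in C-β-LG/DSF, so the list as a whole overlapped between TBI 3 and C-β-LG/DSF 3.

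Homeostatic microglia genes, which mark resting microglia, were lower in 18 of 20 cases (median -0.44, also -0.44 without TBI 1). Of the 20, 6 lay entirely below TBI (30%, against 9.26% of all genes). Csf1r, the receptor for the growth factor on which microglia depend, was at 118, 101 and 70.1 FPKM in TBI and at 64.5, 48.9 and 62.0 FPKM in C-β-LG/DSF (-0.69, SE 0.21). The purinergic-like receptor gene Gpr34 differed by -0.77 (SE 0.23) and Sall1, a transcription factor of microglial identity, by -0.43 (SE 0.13). The defining microglia markers P2ry12, Tmem119 and Cx3cr1 overlapped between the groups, with differences of -0.41, -0.39 and -0.73. The list means were 1.38, 1.39 and 0.94 in TBI and 0.83, 0.56 and 0.93 in C-β-LG/DSF, which leaves TBI 3 and C-β-LG/DSF 3 almost level. Genes of resting and of phagocytic microglia were thus lower side by side.

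Genes of monocytes and macrophages that enter the tissue were lower in 16 of 20 cases (median -0.73), but the median was -0.20 without TBI 1. Ms4a7, a gene of border and invading macrophages, was at 1.73 to 3.14 FPKM in TBI and 0.351 to 1.35 FPKM in C-β-LG/DSF (-1.10, SE 0.33), next to Pf4 and Arg1 above. Of their defining monocyte genes, Ccr2 was too low to be tested, at 0.190 to 1.55 FPKM in TBI and 0.304 to 0.550 FPKM in C-β-LG/DSF. The other, Ly6c2, went the other way, with a log2 difference of 1.675 that was the highest of the list. Its groups overlapped. Lymphocyte genes were near the detection limit, with Cd3e at 0.246 FPKM or less, and 2 of 17 genes tested. The neutrophil genes S100a8 and S100a9 were highest in C-β-LG/DSF 2, at 10.2 and 15.0 FPKM against 2.89 FPKM or less in each other injured library, while Ly6g was at 0.0925 FPKM or less everywhere.

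Complement, chemokine and Toll-like receptor genes were mostly lower too. Complement genes were lower in 18 of 20 cases (median -0.40; -0.21 without TBI 1). Of the 20, 6 lay entirely below TBI (30%, against 9.26% of all genes) and 1 entirely above (5%, against 6%). Itgax, a complement receptor subunit, differed by -0.73 (SE 0.19), Itgam, another complement receptor subunit, by -0.80 (SE 0.27; -0.50 without TBI 1), and C1s1, a protease of the classical pathway, by -0.74 (SE 0.25). Of the cytokine and chemokine genes 13 of 15 were lower (median -0.58; -0.19 without TBI 1). Cxcl16, a membrane-bound chemokine, was at 8.08, 6.11 and 3.98 FPKM in TBI and at 1.39, 2.54 and 2.19 FPKM in C-β-LG/DSF, a difference of -1.35 (SE 0.28). Ccl6 was at 14.1, 4.94 and 4.85 FPKM against 1.58, 1.89 and 3.38 FPKM (-1.49, SE 0.43, and -1.01 without TBI 1). Ccl8, listed at 0 in every Sham library, was at 2.26, 1.28 and 1.52 FPKM against 0.654, 0.880 and 1.15 FPKM (-0.64, SE 0.24). Each of these 3 chemokines was above all Sham libraries in every treated library.

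Of 30 tested genes of Toll-like receptors and NF-kB signalling, 28 were lower (median -0.35; -0.17 without TBI 1). Of the 30, 10 lay entirely below TBI (33.3%, against 9.26% of all genes) and 1 entirely above (3.33%, against 6%). Tlr1 was at 6.12, 4.04 and 2.97 FPKM in TBI and at 1.69, 1.74 and 2.16 FPKM in C-β-LG/DSF (-1.0, SE 0.25). Its partner receptor Tlr2 differed by -1.04 (SE 0.37; -0.68 without TBI 1), with C-β-LG/DSF 3 at 4.15 FPKM above TBI 3 at 3.86 FPKM, and Tlr9, which senses DNA, by -0.66 (SE 0.24).

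Antigen presentation genes were lower in 18 of 20 cases (median -0.49), though the median was -0.14 without TBI 1 and -0.81 without TBI 3. H2-K1, a class I heavy chain, was at 32.9, 19.2 and 12 FPKM in TBI and at 8.38, 4.94 and 9.23 FPKM in C-β-LG/DSF (-1.38, SE 0.38), near Sham at 4.22 to 5.28 FPKM. Without TBI 1 the H2-K1 difference was -1.01. Cd74, the invariant chain of class II, was at 24.5, 10.8 and 12.9 FPKM against 8.03, 6.61 and 7.33 FPKM (-1.0, SE 0.29; -0.66 without TBI 1). Interferon-response genes had a median of -0.33 (22 of 25 lower) that was -0.06 without TBI 1. Single genes differed in direction: the nuclease gene Isg20 was lower, at 1.67 to 2.23 FPKM in TBI and 0.789 to 0.824 FPKM in C-β-LG/DSF (-0.87, SE 0.18), Ifit2 differed by -0.35 (SE 0.14), and Ifit3 was higher in every treated library, at 6.47, 4.2 and 3.46 FPKM against 3.33, 1.28 and 3.14 FPKM (0.80, SE 0.35; 0.44 without TBI 2).

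Lysosomal genes were lower in 24 of 27 cases (median -0.50; -0.30 without TBI 1). Of the 27, 9 lay entirely below TBI (33.3%, against 9.26% of all genes) and 1 entirely above (3.7%, against 6%). The cathepsins, proteases of the lysosome, led the list: Ctss was at 234, 204 and 150 FPKM in TBI and at 103, 99.9 and 132 FPKM in C-β-LG/DSF (-0.80, SE 0.19), and Ctsh at 50.8, 35.7 and 27.1 FPKM against 20.7, 17.6 and 20.3 FPKM (-0.90, SE 0.22). Npc2, which moves cholesterol out of lysosomes, differed by -0.51 (SE 0.14). Heme and iron genes were lower in 12 of 14 cases (median -0.49; -0.32 without TBI 1), among them the biliverdin reductase gene Blvrb (-0.58, SE 0.14), the phagosomal metal transporter gene Slc11a1 (-0.99, SE 0.35; -0.65 without TBI 1) and the iron exporter gene Slc40a1 (-0.47, SE 0.17; -0.31 without C-β-LG/DSF 2). Red cell transcripts differed by library in both groups, with Hba-a1 at 100, 522 and 317 FPKM in TBI and at 88.1, 183 and 127 FPKM in C-β-LG/DSF; the part of blood in these values was not tested. Of the redox genes, the glutathione peroxidase gene Gpx1 (-0.60, SE 0.21; -0.35 without TBI 1) and the NADPH oxidase subunit genes Ncf1 (-0.86, SE 0.32) and Cyba (-0.99, SE 0.38; -0.59 without TBI 1) had the smallest p in a list with a median of -0.18.

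Aldehyde dehydrogenases, the enzyme family that disulfiram inhibits, had mostly small differences, and 14 of 17 tested genes were lower. The median of 17 tested genes was -0.10, and 3 of them lay entirely below TBI, where 9.26% of all genes did. The list means relative to Sham were 0.54, 0.36 and 0.37 in TBI and 0.21, 0.25 and 0.33 in C-β-LG/DSF. Aldh1l2, a mitochondrial enzyme of folate metabolism, was at 3.25, 2.28 and 2.49 FPKM in TBI and at 1.28, 1.25 and 1.44 FPKM in C-β-LG/DSF (-0.79, SE 0.18). Aldh3b1 was at 7.51, 4.82 and 4.82 FPKM against 3.35, 3.10 and 3.96 FPKM (-0.63, SE 0.20), and Aldh16a1 differed by -0.48 (SE 0.25, adjusted p = 0.63; -0.29 without TBI 1). Among genes of lipid handling, Apoe, the main lipid carrier of the brain, was at 2760, 2620 and 2200 FPKM in TBI and at 1480, 1690 and 1820 FPKM in C-β-LG/DSF (-0.60, SE 0.19), and the exporter gene Abca1 differed by -0.40 (SE 0.13). That list as a whole had a median of 0.06, with 13 genes lower and 16 higher. Of its 29 tested genes 6 lay entirely below TBI, where 9.26% of all genes did, and none entirely above.

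Reactive astrocyte genes were lower in 24 of 26 cases (median -0.67; -0.25 without TBI 1). Of the 26, 6 lay entirely below TBI (23.1%, against 9.26% of all genes). Serpina3n, a protease inhibitor induced in reactive astrocytes, was at 111, 84.8 and 71.9 FPKM in TBI, at 47.7, 42.4 and 57.7 FPKM in C-β-LG/DSF and at 10.9 to 11.3 FPKM in Sham (-0.84, SE 0.18). Srgn, a proteoglycan core protein, differed by -1.04 (SE 0.30; -0.68 without TBI 1) and the membrane protein gene Tm4sf1 by -0.65 (SE 0.22). The filament gene Gfap was at 1650, 1110 and 605 FPKM in TBI and at 656, 377 and 630 FPKM in C-β-LG/DSF. These ranges overlapped, since TBI 3 was below 2 of the treated libraries. Homeostatic astrocyte genes were split, 11 lower and 9 higher with a median of -0.04, but the water channel gene Aqp4 was at 60.9, 56.2 and 58.6 FPKM in TBI against 33.8, 42.6 and 47.4 FPKM in C-β-LG/DSF (-0.51, SE 0.13). Mlc1, a partner of the water channel at the astrocyte endfoot, differed by -0.25 (SE 0.08) and S100b by -0.39 (SE 0.15).

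Cell cycle genes were lower in 31 of 32 cases (median -0.70), and the median was -0.13 without TBI 1. None of them lay entirely below TBI, where 9.26% of all genes did. Cdk1, the kinase that starts mitosis, was at 12.7, 4.88 and 3.32 FPKM in TBI and at 4.49, 1.13 and 3.48 FPKM in C-β-LG/DSF, with C-β-LG/DSF 2 the lowest. Genes of oligodendrocyte precursors were lower in 13 of 16 cases (median -0.37; -0.32 without TBI 1, -0.19 without TBI 3). Gpr17, a receptor of precursors about to differentiate, was at 53.2, 56.7 and 49.8 FPKM in TBI and at 38, 30.1 and 39.2 FPKM in C-β-LG/DSF (-0.57, SE 0.12), and the lineage factor gene Olig2 differed by -0.41 (SE 0.16). The sialidase gene Neu4 differed by -0.44 (SE 0.15; -0.29 without C-β-LG/DSF 1). The 20 genes of mature oligodendrocytes differed more between libraries than between groups: their mean relative to Sham, on the log2 scale, was -0.20, 0.01 and 1.62 in TBI and -0.20, 0.69 and 0.60 in C-β-LG/DSF. Their high libraries, TBI 3 and C-β-LG/DSF 2 and 3, were the libraries with high thalamic markers.

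Endothelial genes had a median of -0.31 (20 of 22 lower; -0.14 without TBI 1, -0.54 without TBI 2). Only 1 of the 22 lay entirely below TBI, a smaller share than the 9.26% of all genes, namely the transporter gene Abcg2 at 16.3, 16.8 and 16.8 FPKM in TBI and at 11.3, 8.77 and 12.4 FPKM in C-β-LG/DSF (-0.61, SE 0.14). Cldn5, a protein of the tight junctions of the blood-brain barrier, was at 109, 53.5 and 64.4 FPKM against 46.7, 54.4 and 45.0 FPKM (-0.57, SE 0.25; -0.27 without TBI 1). Matrix genes were lower in 29 of 31 cases (median -0.40; -0.18 without TBI 1), including Tgfbi (-1.22, SE 0.38; -0.75 without TBI 1), the proteoglycan gene Lum (-0.66, SE 0.22) and the collagen gene Col3a1 (-0.92, SE 0.36). Genes of cell death and p53 had a median of -0.24 (20 of 23 lower; -0.08 without TBI 1). Pmaip1, which promotes apoptosis, was at 3.45, 2.5 and 2.61 FPKM in TBI and at 1.80, 1.46 and 2.02 FPKM in C-β-LG/DSF (-0.56, SE 0.18), below Sham at 2.33 to 3.35 FPKM.

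Neuronal lists differed among themselves. In the general neuron list 18 of 20 genes were higher in C-β-LG/DSF, with a median of 0.25 that was 0.09 without TBI 1, and 3 lay entirely above TBI, where 6% of all genes did. Gap43, a protein of growing axon tips, was at 51.2, 108 and 108 FPKM in TBI and at 122, 139 and 128 FPKM in C-β-LG/DSF (0.62, SE 0.28; 0.27 without TBI 1), above Sham at 65.9 to 75.5 FPKM. Map2, which stabilises dendritic microtubules, was at 95.6, 137 and 152 FPKM against 155, 211 and 155 FPKM (0.45, SE 0.21, and 0.25 without TBI 1). The defining neuron markers Rbfox3, Snap25 and Slc17a7 overlapped between the groups. Rbfox3 was at 77.4, 86.5 and 75.7 FPKM in TBI and at 92.1, 68.0 and 73.2 FPKM in C-β-LG/DSF (-0.05). Sham was at 146 to 159 FPKM in Rbfox3. Snap25 differed by 0.26 and Slc17a7 by 0.21. Excitatory and synaptic genes were divided, 14 higher and 9 lower, with 5 of 23 entirely above TBI (21.7%, against 6% of all genes). Their median of 0.12 was 0.004 without C-β-LG/DSF 1, 0.02 without TBI 3 and -0.03 with library weights. Nrn1, a protein that promotes neurite growth, was at 60.2, 70.5 and 81.0 FPKM in TBI, at 102, 93.6 and 92.4 FPKM in C-β-LG/DSF and at 146 to 160 FPKM in Sham (0.45, SE 0.12). The glutamate receptor genes Grm5 and Gria2 differed by 0.59 (SE 0.19; 0.38 without TBI 1) and 0.52 (SE 0.21; 0.28 without TBI 1). Inhibitory neuron genes were higher in 17 of 21 cases (median 0.16; 0.03 without TBI 1) and none lay entirely above TBI, where 6% of all genes did.

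Ion channel genes were higher in 25 of 30 cases (median 0.27; 0.10 without TBI 1), with 4 entirely above TBI (13.3%, against 6% of all genes). Beside Kcnd3, the sodium channel subunit gene Scn3b was at 38.7, 36.1 and 33.2 FPKM in TBI and at 52.0, 40.3 and 44.8 FPKM in C-β-LG/DSF (0.34, SE 0.12), and the calcium channel gene Cacna1e differed by 0.44 (SE 0.16). Axon guidance and adhesion genes were higher in 31 of 34 cases (median 0.31; 0.18 without TBI 1) and 6 lay entirely above TBI (17.6%, against 6% of all genes). Their means per library were -0.29, -0.04 and 0.15 in TBI and 0.34, 0.31 and 0.24 in C-β-LG/DSF, with Sham at -0.06 to 0.10. Beside Cdhr1 and Unc5d, the repulsive guidance gene Sema3a was at 1.12, 1.86 and 2.09 FPKM in TBI and at 3.45, 2.39 and 2.42 FPKM in C-β-LG/DSF (0.58, SE 0.24; 0.38 without TBI 1). Cdhr1, Unc5d and Kcnd3 were put on these lists with their values known.

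Immediate early genes, which neurons and glia switch on within minutes of a stimulus, were mixed, 15 higher and 9 lower (median 0.21; 0.07 without TBI 1 and -0.01 without C-β-LG/DSF 1). Atf3, a transcription factor of injured and stressed cells, was at 7.52, 6.60 and 3.62 FPKM in TBI, at 1.96, 1.38 and 2.2 FPKM in C-β-LG/DSF and at 0.447 to 0.545 FPKM in Sham (-1.41, SE 0.28). Bdnf, a neurotrophin induced by activity, was higher, at 3.77, 3.04 and 4.02 FPKM in TBI and 5.49, 5.10 and 5.57 FPKM in C-β-LG/DSF (0.52, SE 0.14). In Bdnf the treated libraries overlapped Sham, at 5.23 to 6.21 FPKM, and in Atf3 they were above it.

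**Figure D4:**
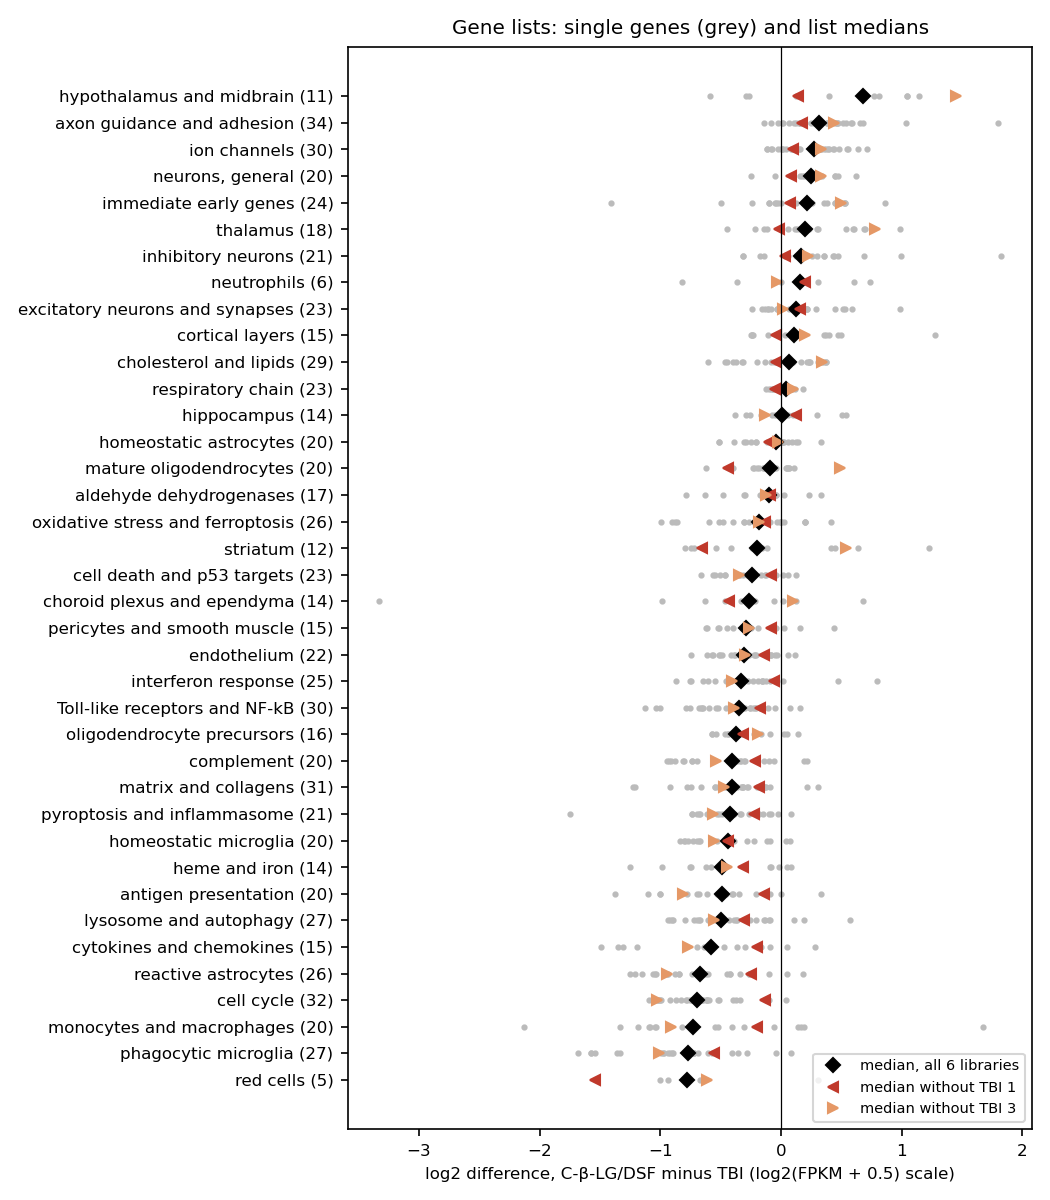
Log2 difference between C-β-LG/DSF and TBI for each gene of a list (grey points) and the list's median with all 6 libraries, without TBI 1 and without TBI 3; the number of genes tested is in brackets. Most immune and glial lists lie left of 0, and most of these move toward 0 without TBI 1, and markers of thalamus, hypothalamus, striatum and myelin move right without TBI 3.

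Markers of brain regions were measured beside these lists, because the pieces of tissue could differ. Thalamic markers had a median of 0.20 that was -0.02 without TBI 1 and 0.78 without TBI 3, and markers of hypothalamus and midbrain 0.68, 0.14 and 1.45. Per library, the thalamic mean relative to Sham was -0.02, 0.26 and 1.98 in TBI and 0.14, 1.71 and 1.13 in C-β-LG/DSF. Cortical layer markers had a median of 0.11 (-0.04 without TBI 1), hippocampal markers of 0.01 and striatal markers of -0.20 (0.54 without TBI 3). With the thalamic mean as a covariate, a choice made after the data were seen, 0 genes passed, the pyroptosis list had a median of -0.42, phagocytic microglia of -0.72, reactive astrocytes of -0.60 and axon guidance genes of 0.32. Some other medians moved more. The cell cycle median went from -0.70 to -0.51, mature oligodendrocytes from -0.09 to -0.30, and hypothalamus and midbrain from 0.68 to 0.26. Lipid genes turned from 0.06 to -0.03 and respiratory chain genes from 0.04 to -0.001.

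**Figure D5:**
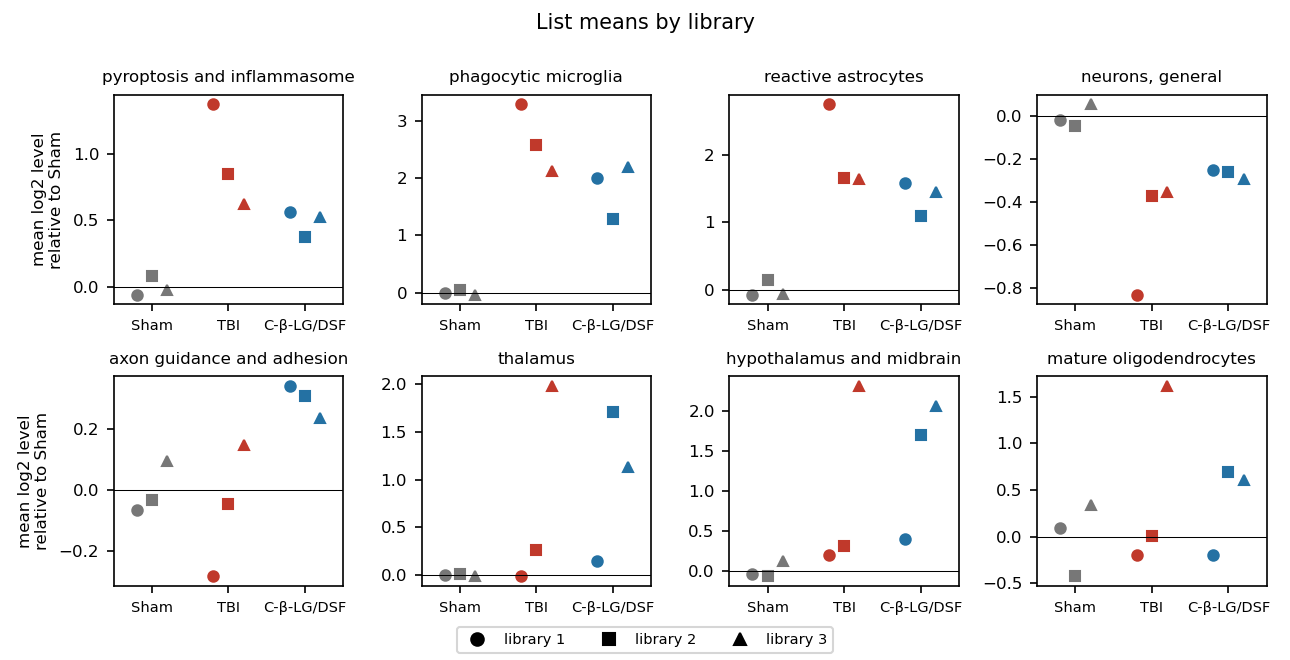
Mean log2 level of 8 gene lists in each library relative to the Sham mean (circle, square and triangle for libraries 1, 2 and 3). TBI 1 (circle) is the extreme injured library for pyroptosis, phagocytic microglia, reactive astrocytes and neurons, and TBI 3 with C-β-LG/DSF 2 and 3 are high for thalamus and for hypothalamus and midbrain.

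The authors' own interval around each FPKM value was wide against these differences. Its median half-width in the 6 libraries was 46.5% of the value at an FPKM of 10 to 100 and 107% at an FPKM of 1 to 2. In 0 of the 14160 genes did all intervals of one group lie clear of all intervals of the other. For any gene taken alone, the smallest two-sided p that an exact permutation of 3 against 3 libraries allows is 0.1.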

How the data were processed

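Total RNA was extracted from brain tissue with Trizol and made into stranded total RNA libraries, per the labels' protocols. HISAT2 2.1.0 and Cufflinks 2.2.1 are the tools the submitters' processing notes name. The authors deposited FPKM per gene and library, with lower and upper bounds around each value. The sources used here do not give depth, build or annotation; 22452 of 22482 gene identifiers are in GENCODE M21 (GRCm38), 15241 with the same start and end. Starts were moved to count from 1. Cufflinks marked 5 genes as failed in at least 1 of the 6 libraries, and their values were kept. An emptied entry was dropped, and 26 symbols turned into dates were restored.

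Genes with an FPKM of 0.5 or more in at least 3 of the 6 libraries were kept, a filter blind to group. Values were log2(FPKM + 0.5), which understates differences of low genes. Limma 3.58.1 under R 4.3.3 fitted 1 mean per group with a mean trend in the variances, 4 residual degrees of freedom, two-sided tests and Benjamini-Hochberg adjustment over all 14160 genes. The fit was tested on simulated data. Log2 differences are C-β-LG/DSF minus TBI.

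The comparison and the 39 gene lists were chosen with earlier results of these data known, so counts over lists are descriptions. The genes named are, in each direction, the 10 of smallest p and the 6 of largest difference among non-overlapping genes without a predicted name whose higher group averaged 1 FPKM or more. To these are added 10 pyroptosis genes and, for each of 27 lists, the 3 of smallest p. Defining markers and haemoglobin genes were chosen for their cell type; S100a8 and S100a9 are described after their values were seen. Alternatives were 16 planned settings and 1 added after the data were seen.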

Additional observations from a re-analysis of the deposited data

How the results depend on the processing

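No gene passed the adjusted test under any of the 17 alternatives (smallest adjusted p 0.068, without C-β-LG/DSF 1). The 39 list medians kept their sign under all of these in 27 lists; the other 12 include excitatory neurons, homeostatic astrocytes, myelin and most regional markers. Of 108 named genes tested, 105 kept their sign, and the exceptions were Casp1 (0.013 after quantile normalization, 0.02 with the thalamic covariate, -0.508 to 0.129 on leaving out 1 library), Il18 (-0.271 to 0.099) and Gsdme (-0.002 to 0.207). Counts at an unadjusted p under 0.05 were less stable. Leaving out 1 library gave 369 to 1326 lower and 144 to 1100 higher genes, the highest without TBI 3 and the lowest without C-β-LG/DSF 2; without TBI 1 they were 421 and 194. Library weights gave 1385 lower and 1035 higher genes. Higher genes numbered 631 after rescaling to equal totals, 622 with all 9 libraries fitted and 636 with the thalamic covariate. Genes with no overlap numbered 1665 to 2831 lower and 1168 to 2523 higher on leaving out 1 library, where fewer values can overlap; rescaling to equal totals gave 879 lower and 1394 higher, which turns the excess. The replicate number as a block gave 791 lower and 334 higher genes. Deviations of same-numbered libraries correlated at 0.33, -0.10 and -0.02, and those of differently numbered libraries at -0.45 to 0.48. With 3 libraries per group these values cannot decide whether the numbers pair them. The low FPKM of Il1b, Nlrp3 and Casp4 and the unknown depth limit what can be said of them.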

Other observations

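Some genes differed widely between libraries of one group. Ttr, the thyroid hormone carrier made in the choroid plexus, was at 37.0, 0.130 and 270 FPKM in TBI and at 1.48, 1.53 and 1.06 FPKM in C-β-LG/DSF, with Sham at 0.0655 to 7.40 FPKM. Gabrb2, a subunit of the GABA receptor, was at 1.37, 3.39 and 21.8 FPKM in TBI, at 14.0, 23.4 and 20.3 FPKM in C-β-LG/DSF and at 3.05 to 17.3 FPKM in Sham. Ly6c2, the defining monocyte gene whose difference is given above, was at 1.81, 11.7 and 0.345 FPKM in TBI and at 8.13, 12 and 6.69 FPKM in C-β-LG/DSF. Sham was at 5.96 to 19.7 FPKM, so the intact tissue was among the highest. These genes were chosen after their values were seen.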
